A study of Mus musculus with 9 samples.

Results

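The mineral hormone genes of the kidney were followed by a list of 9 symbols covering klotho, vitamin D and phosphate handling: Kl, Fgfr1, Cyp27b1, Cyp24a1, Vdr, Slc34a1, Slc34a3, Pth1r and Casr. They were taken by symbol, with no threshold on their values, but the list was chosen with earlier results of these data known. Of the 9, 8 were among the 13081 genes of the table, and Cyp27b1, the enzyme that makes the active form of vitamin D, was not analysed here. RNA came from kidneys of wild type mice aged 3 months (young, n = 4 libraries) or 16 months (old, n = 5 libraries), with no altered allele in either group. Their background was C57BL/6 by the study's text. The labels give neither sex nor strain and do not say that each library is a separate animal, so p-values measure the spread between these libraries. The table held 4486406 to 6355095 reads per library. A normalised count is a gene's read count divided by the size factor of its library, and 1 read was worth 0.819 to 1.18 normalised counts.

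Klotho is a membrane protein of the renal tubule that joins an FGF receptor to form the high-affinity receptor for FGF23, a hormone made in bone. FGF23 and parathyroid hormone (PTH) both lower phosphate reabsorption by removing the sodium-phosphate cotransporters from the brush border of the proximal tubule. They act in opposite ways on vitamin D: PTH favours its activation, whereas FGF23 lowers activation and favours breakdown. The calcium-sensing receptor of the thick ascending limb restrains calcium reabsorption when blood calcium is high. Klotho is widely known as an ageing-related gene, since mice that lack it develop early ageing-like changes and high phosphate.

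The promoter windows of the members are shown first, for Kl and Pth1r, which had the smallest adjusted p-values, and for Slc34a1, which was not called. Windows of 250 bases before a transcript start were taken from RefSeq (GRCm38.p6), which held 9 windows for 7 of the 9 members and none for Cyp24a1 and Fgfr1. The 4 sequences printed here run 5′ to 3′ on the coding strand, and capitals mark letters of the motifs searched. Windows with annotated untranslated exon bases (1 of Pth1r, that of Slc34a3 and that of Vdr) are described and not printed.
Kl, chr5:150952357-150952606, plus strand: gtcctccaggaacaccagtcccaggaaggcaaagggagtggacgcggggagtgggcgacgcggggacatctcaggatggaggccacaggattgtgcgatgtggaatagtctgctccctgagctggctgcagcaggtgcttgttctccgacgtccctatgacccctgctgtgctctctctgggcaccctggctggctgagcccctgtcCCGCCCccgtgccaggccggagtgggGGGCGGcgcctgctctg
Pth1r, chr9:110743687-110743936, minus strand: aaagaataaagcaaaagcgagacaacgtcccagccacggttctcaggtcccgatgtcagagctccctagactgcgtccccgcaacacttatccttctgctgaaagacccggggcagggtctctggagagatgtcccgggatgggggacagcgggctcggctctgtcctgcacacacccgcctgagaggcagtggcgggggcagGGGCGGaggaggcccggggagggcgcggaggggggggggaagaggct
Pth1r, chr9:110747146-110747395, minus strand: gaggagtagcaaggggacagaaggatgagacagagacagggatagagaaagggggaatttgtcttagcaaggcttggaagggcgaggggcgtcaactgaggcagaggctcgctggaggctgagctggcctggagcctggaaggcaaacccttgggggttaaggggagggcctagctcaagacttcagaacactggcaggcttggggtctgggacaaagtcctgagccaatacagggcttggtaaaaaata
Slc34a1, chr13:55399398-55399647, plus strand: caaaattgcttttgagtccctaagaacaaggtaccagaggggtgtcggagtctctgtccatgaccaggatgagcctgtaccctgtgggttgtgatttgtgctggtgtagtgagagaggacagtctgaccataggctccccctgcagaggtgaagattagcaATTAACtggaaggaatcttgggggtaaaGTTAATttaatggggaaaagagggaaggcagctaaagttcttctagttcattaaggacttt
Motifs were counted on both strands, and matches were allowed to overlap: the GC box (GGGCGG), the HNF1 motif (GTTAAT), the nuclear receptor motif (AGGTCA) and the TATA box (TATAAA). The Kl window held 2 GC boxes with a GC content of 66.8%. The 3 Pth1r windows held 4, 1 and 0 GC boxes, with GC contents of 70.4%, 65.6% and 56.0%. The Slc34a1 window held 2 HNF1 motifs, 1 on each strand, and no GC box, with a GC content of 46.4%. The Vdr window (not called) held 3 GC boxes with a GC content of 61.2%, whereas the Casr window (called lower) held 0 of the 4 motifs with 48.8%. Windows with and without GC boxes were thus found among called and among uncalled members, and no link was tested. The Cyp27b1 window also held 0 of the 4 motifs, with a GC content of 54.4%. The Slc34a3 window held 2 nuclear receptor motifs and had a GC content of 56.4%. Among all 32851 promoter windows of the same length, 32.7% held the GC box, 6.43% the HNF1 motif, 14.0% the nuclear receptor motif and 12.4% the TATA box, and their median GC content was 52.4%. The 9 windows of the members held 0 TATA boxes. A match describes letters in the window only.

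In kidneys of old mice, 6 of the 8 members had fallen and 0 had risen (adjusted p under 0.05, limma, over all 12667 genes tested). Pth1r and Kl fell with the smallest errors, Cyp24a1 fell with a large spread, and Fgfr1, Casr and Slc34a3 fell from lower counts. Vdr and Slc34a1 were not called. All 8 members passed the filter on low counts. The background was high: 59.7% of all genes tested were called, 29.2% as higher and 30.5% as lower in old kidneys. The median log2 fold change was -0.72 over the members and -0.003 over all genes tested. In 4 members (Kl, Pth1r, Fgfr1 and Casr) every old library lay below every young library, an arrangement found in 25.7% of all genes tested. Age coincided with the prefix of the library titles, so age and prefix cannot be told apart. Reads from mitochondrial genes made up 27.0% to 29.8% of young and 35.8% to 38.1% of old libraries. When those genes were left out and the rest rescaled, the median of all genes moved up by 0.14 on the log2 scale, and the same 6 members were called lower. Old replicate 3 had the lowest value of all 9 libraries in 6 of the 8 members (Kl, Fgfr1, Vdr, Slc34a1, Pth1r and Casr). It also stood apart in markers of other cells, which were picked after their values were seen. Aqp2, the water channel of principal cells, had 2267 normalised counts in it against 334 to 693.5 in the other old libraries, Fxyd4 443 against 87.0 to 159, Ighm, an antibody gene, 808 against 64.4 to 270.2, and Adipoq, a gene of fat cells, 189 against 0.933 to 71.9. Of the same lists, Avpr2 (117.6 against 35.01 to 62.35), Jchain (299.2 against 63.43 to 160.2) and Fabp4 (423.9 against 54.1 to 120.2) were also above the other old libraries in it. So were the adipocyte markers Plin1, Cidec and Cfd. Some genes of these lists did not stand apart in it. S100g was at its lowest of all libraries there (4433), and Hsd11b2 (372) and Ptprc (78.1) were between values of other old libraries. Scnn1g (77.1) was below old replicate 5 (80.6) in it. Without it the same 6 members were called lower, with log2 fold changes of -0.77 for Kl, -1.20 for Pth1r, -0.54 for Fgfr1, -0.82 for Casr, -1.51 for Cyp24a1 and -0.58 for Slc34a3, beside -0.15 for Vdr and 0.11 for Slc34a1, which were not called. In kidney RNA, fewer cells of a type and less RNA per cell cannot be told apart.

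**Figure D1:**
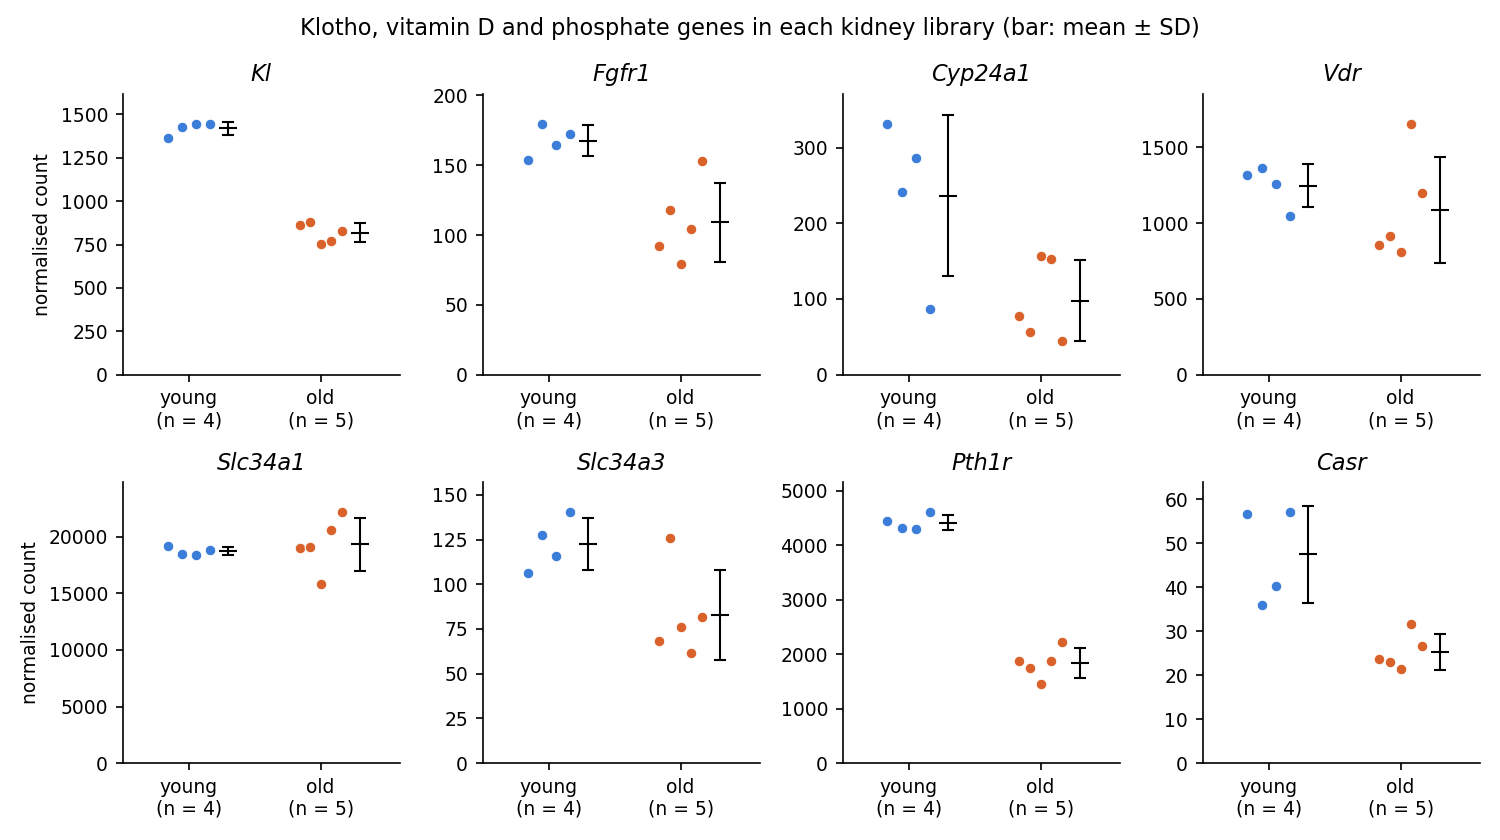
Normalised count (vertical axis, from 0, a separate range per gene) of the 8 members in each library, with young libraries in blue (n = 4), old libraries in orange (n = 5) and a bar for the mean ± SD. Old points lie below all young points for Kl, Fgfr1, Pth1r and Casr. Young replicate 4 is the lowest young point of Cyp24a1. The highest old point is old replicate 4 for Vdr and old replicate 2 for Slc34a3.

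The FGF23 receptor complex was examined first. Kl, which encodes klotho, lies on chromosome 5 (150952607 to 150993817, plus strand, GRCm38, GENCODE vM21), a build other than the one used for counting. The young libraries 1 to 4 held 1367, 1429, 1447 and 1443 normalised counts, and the old libraries 1 to 5 held 862, 882, 756, 770.5 and 826. The groups were far apart, and the lowest young value exceeded the highest old value by a wide margin. The mean fell from 1422 ± 37.3 (SD, n = 4) to 819 ± 55.2 (SD, n = 5), or to 57.6% of the young level, with a log2 fold change of -0.80 (SE 0.086, 95% confidence interval -0.98 to -0.62, limma adjusted p = 2.85e-07). Kl had coefficients of variation of 2.62% in young and 6.74% in old kidneys. Of all genes tested, 7.57% had a larger moderated t statistic in size.

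Fgfr1, an FGF receptor that pairs with klotho, lies on chromosome 8 (25513654 to 25575718, plus strand). Young libraries held 154, 179.8, 165 and 172 normalised counts, and old libraries held 91.9, 118, 79.1, 104 and 153. The groups did not overlap, but old replicate 5 came close to young replicate 1 and stood above the other old libraries. The mean fell from 168 ± 10.98 (SD, n = 4) to 109 ± 28.3 (SD, n = 5), a log2 fold change of -0.65 (SE 0.16, limma adjusted p = 0.00205). Of all genes tested, 38.1% had a larger moderated t statistic in size, which reflects both the change and its error.

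Around the receptor, 36 of 39 listed genes of FGF23-klotho signalling were tested, of which 11 were called higher and 16 lower (median log2 fold change -0.11). The table listed neither Fgf23 itself nor Klb, the related co-receptor for other endocrine FGFs. Large falls by t statistic were seen in Gab1, an adaptor of receptor tyrosine kinases (115 ± 0.754 to 26.2 ± 3.98 normalised counts, log2 fold change -2.10), and in Dusp6, an ERK phosphatase that is itself induced by FGF signalling (244 ± 39.3 to 79.6 ± 8.04, -1.59). The largest rises were in Sos2, a Ras exchange factor (log2 fold change 1.25), Sgk1, a kinase that acts downstream of klotho and FGF23 in the proximal tubule (1.25), and Frs2, the docking protein of FGF receptors (1.22). Adjusted p-values of these 5 genes were at most 7.43e-06 (limma). Frs3, the other docking protein of this family, was named after its values were seen and went the other way, with 24.6, 34.01, 27.4 and 31.7 normalised counts in young libraries and 3.54, 0, 1.01, 0 and 0 in old libraries (limma adjusted p = 1.18e-06). Its old values were at or under the floor of 3 reads, so no fold is given. Calls in this pathway therefore went in both directions. The other FGF receptor genes, chosen after their values were seen, were all lower: Fgfr2 from 35.5 ± 6.34 to 13.7 ± 2.52 normalised counts (-1.31), Fgfr3 from 173 ± 25.8 to 122 ± 14.4 (-0.50) and Fgfr4 from 63.4 ± 14.8 to 43.2 ± 7.36 (-0.53), with limma adjusted p-values of 0.000204, 0.00381 and 0.0267.

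Vitamin D was represented by a breakdown enzyme and by the receptor. Cyp24a1 encodes the mitochondrial hydroxylase that inactivates calcitriol, and it lies on chromosome 2 (170482708 to 170497145, minus strand). Young libraries held 332, 242, 286 and 86.9 normalised counts, and old libraries held 77.8, 55.8, 156, 153 and 44.6. Young replicate 4 lay below old replicates 3 and 4, so the groups overlapped, and the values spread widely within both ages (coefficients of variation 44.9% and 54.9%). The mean went from 237 ± 106 (SD, n = 4) to 97.5 ± 53.5 (SD, n = 5), a log2 fold change of -1.29 (SE 0.36, 95% confidence interval -2.05 to -0.53, limma adjusted p = 0.00493). With robust variance estimates the adjusted p was 0.0785, and over all alternatives it ranged from 0.000187 to 0.0785.

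Vdr encodes the receptor that calcitriol binds and of which Cyp24a1 is a classical target gene. It lies on chromosome 15 (97854425 to 97910630, minus strand). Young libraries held 1319, 1366, 1258 and 1049 normalised counts, and old libraries held 853, 917, 810.3, 1657 and 1197. Old replicate 4 had the highest value of all 9 libraries, whereas old replicates 1, 2 and 3 lay below every young library. The log2 fold change was -0.25 (SE 0.16, 95% confidence interval -0.59 to 0.09, limma adjusted p = 0.198), so no difference was called. This rested on 1 library: without old replicate 4 the log2 fold change was -0.41 with an adjusted p of 0.00879, in a range of 0.00879 to 0.574 over all alternatives. Young replicate 4 had the lowest young value of both Vdr and Cyp24a1.

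Among genes of vitamin D supply, metabolism and action, 21 of 24 were tested, and 8 were called higher and 8 lower (median log2 fold change 0.11). Lrp2, which encodes the endocytic receptor megalin that retrieves filtered vitamin D with its carrier, rose from 3051 ± 287 to 5913 ± 708 normalised counts (log2 fold change 0.95, limma adjusted p = 3.45e-07). Ncor1, a co-repressor of nuclear receptors, rose by 0.55 on the log2 scale. Fdx1, the ferredoxin that feeds electrons to the mitochondrial vitamin D hydroxylases, fell from 544 ± 29.6 to 283.5 ± 21.3 (-0.94, limma adjusted p = 1.7e-07). Cyp27a1, a hydroxylase of sterols and vitamin D, fell from 172.5 ± 3.84 to 77.2 ± 7.96 (-1.16), and the transcription factor Cebpb fell from 117 ± 21.2 to 53.0 ± 7.38 (-1.12). Gc, the plasma carrier of vitamin D, was called higher with overlapping groups (54.9 ± 4.32 to 99.8 ± 45.0, limma adjusted p = 0.0321). Genes near these in the same list, named after their values were seen, did not all follow them. Cubn, the partner of megalin in uptake, fell from 672.5 ± 52.5 to 519 ± 44.6 (-0.38, limma adjusted p = 0.00272), and Fdxr, the reductase that feeds Fdx1, had 39.0 ± 2.96 and 47.7 ± 9.92 and was not called (0.252).

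**Figure D2:**
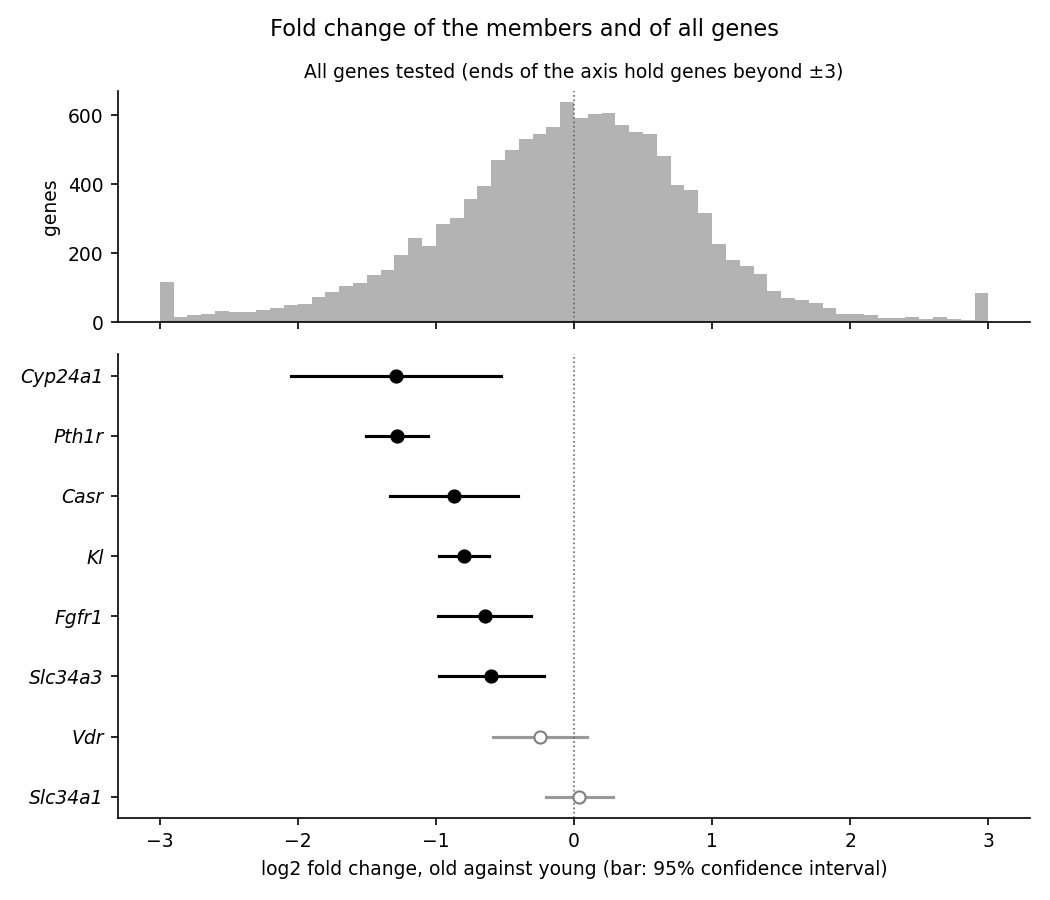
Log2 fold change of old against young (horizontal axis) for all 12667 genes tested (upper panel, number of genes) and for each of the 8 members with its 95% confidence interval (lower panel, filled where called). Intervals of 6 members lie entirely below 0, those of Vdr and Slc34a1 include 0, and that of Cyp24a1 is the widest.

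The brush border cotransporters that take phosphate out of the filtrate were measured at very different depths. Slc34a1 encodes NaPi-IIa, the main brush border sodium-phosphate cotransporter of the mouse proximal tubule, and lies on chromosome 13 (55398187 to 55415592, plus strand). Young libraries held 19174, 18490.5, 18414 and 18823 normalised counts, and old libraries held 19016, 19067.5, 15793, 20589 and 22179.9. The old values lay on both sides of the narrow young range. The means were 18725 ± 348 (SD, n = 4) and 19329 ± 2366 (SD, n = 5), with a log2 fold change of 0.037 (SE 0.12, 95% confidence interval -0.21 to 0.28, limma adjusted p = 0.799). Its coefficient of variation was 1.86% in young and 12.2% in old kidneys. The sign was not fixed, since the log2 fold change was -0.016 with libraries scaled to their table totals and -0.015 without old replicate 5, whereas it was 0.18 (adjusted p = 0.158) after mitochondrial genes were dropped and libraries rescaled.

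Slc34a3 encodes NaPi-IIc, the other brush border cotransporter of this family in the kidney, and lies on chromosome 2 (25228898 to 25234364, minus strand). Young libraries held 106, 127, 116 and 140.3 normalised counts, and old libraries held 68.4, 126, 76.1, 61.6 and 81.7. Old replicate 2 fell within the young range, and the other 4 old libraries lay below it. The mean fell from 122 ± 14.7 (SD, n = 4) to 82.7 ± 25.3 (SD, n = 5), a log2 fold change of -0.60 (SE 0.18, 95% confidence interval -0.98 to -0.22, limma adjusted p = 0.00809). With a trend on transcript length removed from each library it was -0.37 and no longer called (adjusted p = 0.0821), in a range of 0.000301 to 0.0821 over all alternatives.

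The ratio of Slc34a1 to Slc34a3 within a library does not depend on how that library was scaled, and only its difference between ages is read here. Its log2 value was 7.48, 7.17, 7.30 and 7.06 in young libraries and 8.10, 7.23, 7.68, 8.36 and 8.07 in old libraries. It was higher in 4 of 5 old libraries than in any young library. The difference of 0.64 (SE 0.24) had p = 0.0476 by a two-sided exact permutation test and 0.0556 after Benjamini-Hochberg adjustment over 7 ratios, so it missed the threshold. Without old replicate 2 it was 0.80 with an adjusted p of 0.0333 (exact permutation test).

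Of the other phosphate genes, 15 of 22 listed were tested, with 5 called higher and 5 lower (median log2 fold change 0.039). Slc20a2, which encodes the sodium-phosphate cotransporter Pit2, fell from 145, 190.4, 209 and 178 normalised counts in young libraries to 22.4, 47.0, 18.2, 35.5 and 29.7 in old libraries. No old library came near the lowest young one, and the log2 fold change of -2.59 (SE 0.23, limma adjusted p = 1.69e-08) exceeded that of every member. Its relative Slc20a1 (Pit1) had 91.7 ± 7.35 and 101 ± 26.4 normalised counts and was not called (limma adjusted p = 0.664). Slc17a1 and Slc17a3, transporters of organic anions and phosphate in the proximal tubule, fell by 0.99 and 0.72 on the log2 scale. Xpr1, the phosphate exporter, rose from 431 ± 5.93 to 611 ± 39.4 (log2 fold change 0.50), the tissue phosphatase gene Alpl from 602 ± 38.3 to 1225 ± 286 (0.99), and the scaffold gene Slc9a3r2 from 178 ± 27.2 to 253 ± 26.1 (0.51). The table did not list Slc34a2, the cotransporter of intestine and lung. The scaffold proteins Slc9a3r1 (NHERF1) and Pdzk1, which hold NaPi-IIa at the brush border, were named after their values were seen. Slc9a3r1 fell from 916 ± 15.3 to 634 ± 50.7 (limma adjusted p = 5.52e-05), and Pdzk1 from 2284 ± 208 to 1929 ± 116 (0.0282).

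The receptors for PTH and calcium both fell. Pth1r, the receptor through which PTH acts on the tubule, lies on chromosome 9 (110722085 to 110747145, minus strand). Young libraries held 4445, 4309, 4303 and 4608 normalised counts, and old libraries held 1875, 1738, 1454, 1869 and 2226. Every old value lay far below every young value. The mean fell from 4416 ± 144 (SD, n = 4) to 1833 ± 278 (SD, n = 5), or to 41.5% of the young level, with a log2 fold change of -1.28 (SE 0.11, 95% confidence interval -1.50 to -1.06, limma adjusted p = 9.25e-09). Of all genes tested, 3.04% had a larger t statistic in size, the smallest share among the members. For the called members Casr, Cyp24a1 and Slc34a3 this share was 38.8%, 43.4% and 46.3%.

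Casr, the calcium-sensing receptor, lies on chromosome 16 (36493696 to 36562141, minus strand) and had the fewest reads of the members, 20 to 69 per library. Young libraries held 56.5, 36.0, 40.2 and 57.0 normalised counts, and old libraries held 23.6, 23.0, 21.3, 31.7 and 26.5. The young libraries fell into a higher and a lower pair, both above all old libraries. The mean fell from 47.4 ± 10.9 (SD, n = 4) to 25.2 ± 4.09 (SD, n = 5), a log2 fold change of -0.87 (SE 0.22, 95% confidence interval -1.33 to -0.41, limma adjusted p = 0.00229).

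Downstream of these receptors, 24 of 30 listed genes of PTH and calcium receptor signalling were tested, and 10 were called higher and 7 lower (median log2 fold change 0.16). The table did not list Pth itself. Subunits of protein kinase A, which carries the cyclic AMP signal of Pth1r, moved in both directions: the catalytic subunit gene Prkacb rose from 240 ± 17.8 to 468 ± 36.9 normalised counts (0.96), whereas the catalytic subunit gene Prkaca, named after its values were seen, fell from 341 ± 13.9 to 185 ± 56.3 (-0.93, limma adjusted p = 0.000139). The regulatory gene Prkar2a rose from 344 ± 18.4 to 569 ± 61.4 (0.72), whereas the regulatory gene Prkar1a fell from 960 ± 57.4 to 564 ± 92.3 (-0.78). Arrb1, an arrestin that binds activated receptors, rose from 166 ± 13.0 to 301 ± 55.0 (0.84). Gnaq, a G protein subunit used by Casr, fell from 275 ± 16.1 to 138 ± 21.8 (-1.004), and Ap2s1, an adaptor subunit needed for uptake of Casr from the membrane, fell from 290.5 ± 72.7 to 144 ± 21.0 (-0.98). Adjusted p-values of the 6 genes chosen by rule were at most 2.29e-05 (limma).

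Of calcium and magnesium transport genes, 20 of 22 were tested, with 8 called higher and 4 lower (median log2 fold change 0.071). Trpm6, the magnesium channel of the distal convoluted tubule, rose from 25.9 ± 8.60 to 87.9 ± 4.40 normalised counts (1.77), Egf, a hormone that activates that channel, from 1633 ± 128 to 3394 ± 649 (1.04), and the plasma membrane calcium pump gene Atp2b4 from 80.2 ± 4.77 to 211 ± 29.8 (1.38). Cldn10, a claudin of the paracellular pathway, fell from 1793 ± 112 to 611 ± 78.5 (-1.56, limma adjusted p = 3.93e-10). The magnesium transporter genes Slc41a1 and Slc41a3 had log2 fold changes of -0.99 and -1.95, the latter from only 30.3 ± 8.69 to 9.09 ± 8.64 normalised counts. Over the 5 pathway lists together, 82 of 116 genes tested were called (70.7%), 42 higher and 40 lower, with a median log2 fold change of 0.045. This even split held for the deposited scaling: after mitochondrial genes were dropped and libraries rescaled, 47 were called higher and 33 lower, beside 4472 higher and 3173 lower over all genes tested. All 6 called members were lower under both scalings. The difference between the members and the wider lists was not tested.

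**Figure D3:**
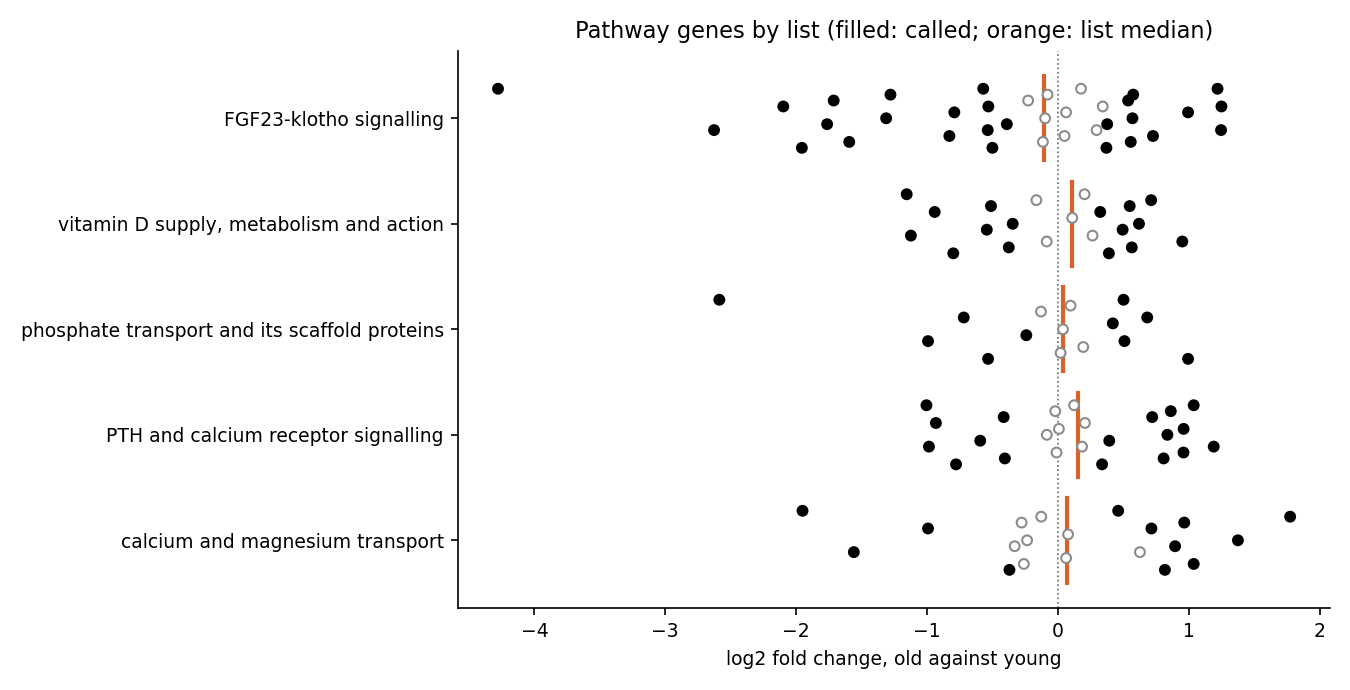
Log2 fold change of old against young (horizontal axis) for each tested gene of the 5 pathway lists (rows), filled where called, with the list median in orange. Genes lie on both sides of 0 in every list, and list medians run from -0.11 to 0.16.

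Segment markers also moved with age, and the members were read against them. Of 18 proximal tubule markers, 12 were called lower and 5 higher, their median log2 fold change was -0.52, and their summed level was 209992 to 239043 normalised counts in young and 138962 to 188072 in old libraries. A single gene, Kap, made up 67.2% to 74.1% of this sum in young and 57.6% to 65.4% in old libraries, and the other 17 markers summed to 58931 to 68946 in young and 53338 to 65021 in old libraries, ranges that overlap. Lrp2 belongs to both this list and that of vitamin D supply. Of 7 thick ascending limb markers, 2 were called higher and 0 lower (summed level 9006 to 9839.7 in young and 11507 to 15932 in old). Of 8 distal convoluted tubule markers, 5 were called higher and 1 lower (3921 to 4903 and 6949.5 to 7991). Trpm6 and Egf belong to these distal lists. Of 10 connecting tubule and principal cell markers, 0 were called higher and 5 lower, and of 7 intercalated cell markers 1 higher and 5 lower. All markers of the tubule segments were among the genes of the table.

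Kl, Pth1r, Casr, Slc34a1 and Slc34a3 were each set against the mean log2 level of the markers of a segment in the same library. No such ratio was taken for Fgfr1, Cyp24a1 and Vdr. Pth1r to proximal tubule markers was 0.38, 0.49, 0.43 and 0.44 on the log2 scale in young and -0.47, -0.64, -0.72, -0.49 and -0.27 in old libraries. The groups stood apart, with a difference of -0.95 (SE 0.089). Kl to proximal tubule markers differed by -0.47 (SE 0.056), from a range of -1.32 to -1.10 in young to -1.77 to -1.59 in old libraries. Against distal convoluted tubule markers, the segment where klotho is most abundant, Kl differed by -1.38 (SE 0.072), from 2.44 to 2.66 in young to 0.97 to 1.27 in old libraries. Casr to thick ascending limb markers differed by -1.23 (SE 0.18), from -3.38 to -2.58 in young to -4.49 to -4.06 in old libraries. For these 4 ratios the ages did not overlap. Without the markers, Kl changed by -0.80 and Casr by -0.87. The mean log2 level of the distal convoluted tubule markers was itself higher in old libraries (7.84 to 8.04 in young, 8.42 to 8.63 in old). The same held for the thick ascending limb markers (8.42 to 8.78 in young, 8.84 to 9.19 in old). The size depended on the reference: with the median of the markers in place of their mean, the differences were -0.29 for Kl and -0.77 for Pth1r to proximal tubule markers, -1.24 for Kl to distal convoluted tubule markers and -0.96 for Casr, each with an adjusted p of 0.0222 (exact permutation test). Some proximal tubule markers, picked after their values were seen, fell about as much as Pth1r or more, such as the transporter genes Slc22a6 (-1.26) and Slc22a12 (-1.65). These markers and Gatm (-1.24), Slc7a13 (-1.14) and Hnf4a (-0.93) also fell more than Kl (-0.80), whereas 5 of the 18 were called higher. Kl therefore lay inside the spread of the list.

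The ratio of Slc34a1 moved the other way. Its log2 ratio to proximal tubule markers was 2.49, 2.59, 2.52 and 2.47 in young and 2.88, 2.82, 2.72, 2.97 and 3.04 in old libraries, a rise of 0.37 (SE 0.068) with no overlap (0.55 against the median of the markers). The 5 proximal tubule markers that were called higher, from Acsm2 (0.33) to Slc5a12 (1.63), each had a larger log2 fold change than Slc34a1, so it lay inside the spread of the list. Slc34a3 to the same markers ranged from -4.99 to -4.58 in young and from -5.39 to -4.42 in old libraries, with a difference of -0.27 (SE 0.21) that was not called (exact permutation test p = 0.206, adjusted p = 0.206), and of -0.090 against the median of the markers. The 5 ratios without overlap each had p = 0.0159 by the two-sided exact permutation test, the smallest that 4 against 5 libraries allow, and an adjusted p of 0.0222 over 7 ratios. In old kidneys the transcript of the main phosphate cotransporter was higher relative to the mean of proximal tubule markers, although its own level was not called, and that of the PTH receptor was lower.

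**Figure D4:**
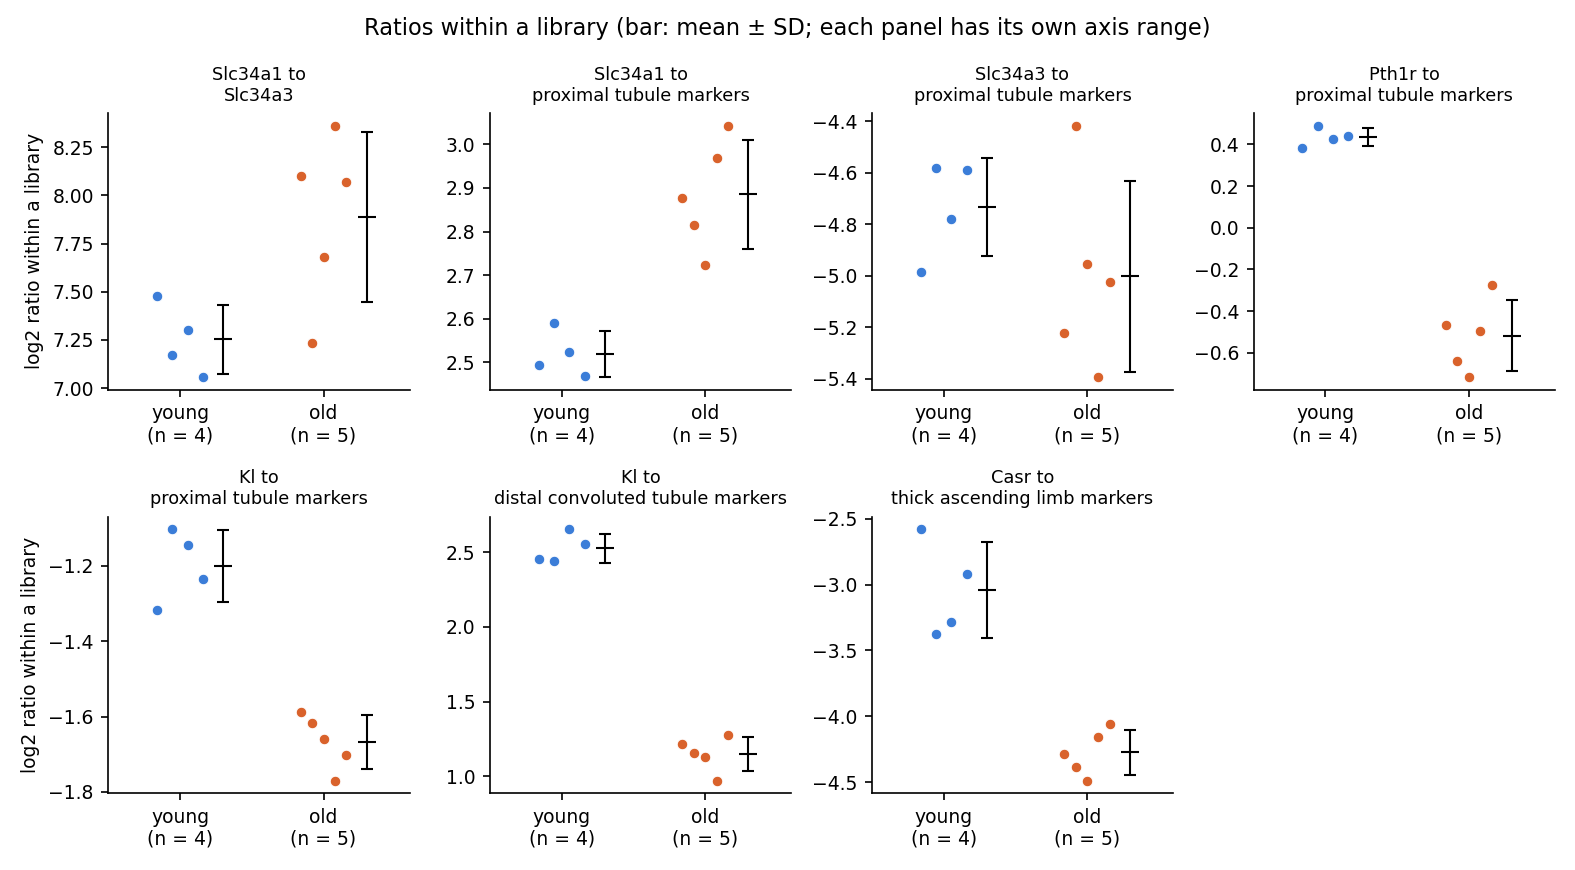
Log2 ratio within a library (vertical axis, a separate range per panel that does not start at 0) of each member to another member or to the mean log2 level of segment markers, for young (blue, n = 4) and old (orange, n = 5) libraries, with the mean ± SD. Ages separate for Slc34a1, Pth1r and Kl to proximal tubule markers, for Kl to distal convoluted tubule markers and for Casr to thick ascending limb markers.

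Cells other than tubule cells were checked beside these results. Of 8 lymphocyte markers listed, 4 were tested (Ighm, Igkc, Jchain and Ptprc), and all 4 were called higher. The summed level was 269 to 744 normalised counts in young and 991 to 3312 in old libraries, with Igkc the largest part (322 ± 184 and 1437 ± 658). The table did not list Cd3d, Cd79a and Cd79b, and Cd3e did not pass the filter. Of 8 macrophage markers, 3 were called higher and 1 lower (1175 to 1362 and 1373 to 1929). Of 8 fibroblast and mural cell markers, 2 were called higher and 4 lower, of 8 endothelial markers 4 higher and 1 lower, of 6 podocyte markers 3 higher and 2 lower, and of 6 red blood cell markers 3 higher and 1 lower. Of 4 adipocyte markers tested 1, Fabp4, was called lower (490 ± 279 to 157 ± 151, log2 fold change -1.89). Summed levels of the list were 271 to 1456 in young and 56.9 to 1114 in old libraries. The other 3 were not called and had positive log2 fold changes: Adipoq 2.36, Cidec 2.10 and Cfd 1.10. Young replicate 2 held the highest young value of each marker, such as 447 normalised counts of Cfd against 0.905 to 36.3 in the other young libraries. The table listed 0 of 8 adrenal gland markers. The part of these cells in the values of the members was not tested.

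The pattern of each member over the 9 libraries was compared with that of all genes tested, by the root mean square difference of log2 values after centring each gene on its own mean. Kl was nearest to Prdx5 (0.033), Abhd14b (0.065) and Hcfc1r1 (0.067). Pth1r was nearest to Cystm1, Chchd2 and Tti1 (0.11 each), and Slc34a1 to Yipf5 (0.031), Nisch (0.046) and Cuedc2 (0.057). Fgfr1 was nearest to Rabl3, Trim41 and Mob1b (0.10 to 0.11), Slc34a3 to Steap3, Dnajc14 and Lrtm2 (0.11 to 0.13), Vdr to Prkd2, Stmn1 and Txnl4a (0.13 to 0.15), and Casr to Rbm3, Yipf3 and Nkapd1 (0.15 to 0.16). Cyp24a1 had no close neighbour, since its nearest gene, Iigp1, differed by 0.40, followed by 4633401B06Rik (0.47) and Angptl4 (0.47). No member was among the 3 genes nearest to another member.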

How the data were processed

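Kidney RNA was converted with a kit that primes on poly(A) tails and reads transcript ends as sense-stranded single reads, so each read stands for the end of a transcript. Labels and study methods name different versions of this kit. The authors aligned reads to GRCm39 with TopHat2 2.0.10 (Bowtie 1.0.0, SAMtools 0.1.19), counted them by strand with HTSeq 0.6.1 on GENCODE vM26 and normalised with DESeq. Per gene, the authors deposited a signal, here named normalised count, which is the read count over the size factor of the library. The smallest positive value of a library was taken as 1 read, and 100% of values were whole multiples of it (tolerance 0.01). Genes with few reads were not analysed here, as no gene of the table had a mean under 4.49. The floor of 3 reads was 2.46 to 3.54 normalised counts, covers counting error only, and lies below every value of the members. Reads carry no molecular identifiers, so they are not independent molecules.

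Log2(normalised count + 1) was fitted with limma 3.58.1 (eBayes with a variance trend, R 4.3.3) for genes that reached 10 normalised counts in 4 or more libraries, with Benjamini-Hochberg adjustment over all 12667 genes tested. This scale understates changes of low genes. Called means an adjusted p under 0.05. Within-library ratios used two-sided exact permutation tests, adjusted over 7 ratios. The planned ratio of Cyp27b1 to Cyp24a1 was not computed. Alternatives were pseudocounts of 0.1 and 5, no filter or a mean of at least 100, TMM factors, table totals, mitochondrial genes left out, edgeR 4.0.16 and DESeq2 1.42.0 on whole reads, robust eBayes, a transcript length trend removed, each library left out and, for ratios, the median of the markers. The fits were tested on simulated data.

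Members, marker lists and pathway lists were chosen with earlier results of these data known. Named pathway genes are the 3 largest moderated t statistics in each direction among called genes of a list, the hormones and defining genes of the pathway, and the 3 genes nearest in pattern to each member. Not every gene that met this rule is reported here. Others are stated as chosen after their values were seen. Library numbers follow listing order and pair no samples. Coordinates are GENCODE vM21 on GRCm38 and were not converted. In that annotation Pfn3 lies antisense to the end of Slc34a1, and at most 1.22% of the 50-base sequences near the transcript end of a member (Kl) are shared with another gene.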

Additional observations from a re-analysis of the deposited data

Results flagged for a closer look

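Of 54 groups of young or old libraries checked for a library far from its group, covering the members, the ratios and the marker lists, 1 stood out, while chance alone gives about 1 in 20 (2.7 groups). For the macrophage markers, young replicate 1 had a mean log2 level of 6.34, whereas young replicates 2, 3 and 4 had 6.13 to 6.17, so the gap took up a share of 0.83 of the range. In that library Kl had its lowest young value (1367 normalised counts), and Kl kept its call without it. Single marker genes were not part of this check, and old replicate 3, which stood apart in several of them, was not picked out by it.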

How the results depend on the processing

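Between 5 and 7 members were called under the 20 alternatives, with 0 called higher in any of them: 5 with robust eBayes (Cyp24a1 lost), with the length trend removed (Slc34a3 lost) and with a mean of at least 100 (Casr not tested), and 7 without old replicate 4 (Vdr gained). Kl, Pth1r and Fgfr1 were called lower under all 20. The number of genes called was 7649 with edgeR and 7532 with DESeq2, of which 7489 and 7425 were also called by limma, and 4101 with a mean of at least 100, where fewer genes were tested. Slc34a1 changed sign with table totals (-0.016), was 0.18 without mitochondrial genes, and its log2 fold change ran from -0.015 to 0.11 with each library left out. With each library left out, log2 ratios ran from -1.34 to -1.08 for Casr to thick ascending limb markers, from -1.41 to -1.33 for Kl to distal and from -0.51 to -0.43 for Kl to proximal tubule markers, from -1.01 to -0.90 for Pth1r, 0.33 to 0.41 for Slc34a1 and -0.42 to -0.17 for Slc34a3 to proximal tubule markers, and from 0.52 to 0.80 for Slc34a1 to Slc34a3. With the median of the markers in place of their mean, Kl (-0.29), Slc34a1 (0.55) and Slc34a3 (-0.090) to proximal tubule markers, Pth1r to the same markers (-0.77), Kl to distal markers (-1.24) and Casr (-0.96) lay outside those ranges, and no call changed. With 3 young libraries 5 of these ratios lost their call by construction, since the exact permutation test then has a larger smallest p. No paired analysis was possible because the titles carry no replicate numbers shared between ages. Precision for Casr was limited by 20 to 69 reads per library, and the effect of title prefix cannot be told apart from age.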
